A study of Mus musculus with 46 samples.

Results

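The genes described are 10 transcripts taken to report or restrain the ERK branch of MAP kinase signalling. They are Dusp1, Dusp4, Dusp5, Dusp6, Dusp9, Spry2, Spry4, Spred1, Etv4 and Etv5. Whether ERK switches on each of them here was not tested. They were picked by symbol, with earlier results of these data known, and all 10 were found among the 21671 genes of the deposited table. In this cascade a growth factor receptor activates Ras, which activates Raf, MEK and ERK in turn, and ERK enters the nucleus and drives transcription. Part of that transcription feeds back: Dusp phosphatases remove the activating phosphates from ERK and its relatives, and Sprouty and Spred proteins block the path between the receptor and Raf. In liver the cascade carries the signals of EGF, HGF and FGF family ligands that act in regeneration and tumour growth.

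RNA was sequenced from mouse liver and liver tumours of the FVB strain in 4 groups. Myc-off tumours (8 libraries from 3 animal IDs) carried a tetracycline-controlled Myc transgene, tet-Myc, that had been switched off for 16 h by food with doxycycline. MycVD tumours (11 libraries from 10 IDs) expressed tet-Myc with the V394D substitution, a change reported to impair the contact of Myc with Miz1, a transcription factor. Myc tumours (16 libraries from 7 IDs) expressed wild-type tet-Myc, and control liver (11 libraries from 11 IDs) was labelled as normal liver, with no transgene named. The transactivator LAP-tTA, described as liver-specific, turned both transgenes on in utero. The labels give no ages.

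The sample titles give an ID, and several lettered tumours can carry the same one; treating an ID as an animal is an assumption. Values of tumours of 1 ID were averaged, so that n counts IDs, 31 in all. The unit is eRPKM, reads in the exons of a gene per kilobase, scaled to the depth of the library, so levels can be set side by side between genes. Recovered depth was 3.25, 7.14 and 10.4 M reads (lowest, median, highest) in Myc-off tumours, 6.18, 7.81 and 10.6 in MycVD tumours, 7.27, 9.65 and 12.6 in Myc tumours and 5.63, 7.32 and 8.95 in control liver. Hepatocyte markers (7 genes) were abundant in every group, with median sums of 1047, 738, 566 and 1250 eRPKM in Myc-off tumours, MycVD tumours, Myc tumours and control liver. In bulk tissue, fewer cells of a type and less RNA per cell cannot be told apart. The row named Myc lay between 4.16 and 9.11 eRPKM in Myc-off, 2.67 and 9.86 in MycVD, 6.27 and 10.9 in Myc and 1.46 and 18.2 in control IDs, so it does not check the labels, and nothing says whether it holds the reads of the transgene. All Myc-off IDs are numbered above those of the other groups, and all MycVD IDs above all Myc IDs, while the control numbers span those of the Myc and MycVD IDs. What the order of the numbers stands for is not stated; between tumour groups, and for Myc-off tumours, anything that goes with it cannot be told apart from the group. Low Gapdh, below 30 eRPKM, set 8 libraries apart; 5 of them were Myc, 2 MycVD and 1 control.

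A gene was tested if 3 or more IDs reached 1 eRPKM, which kept 14566 genes and 9 of the 10 feedback genes. Etv4 reached 1 eRPKM in 2 IDs and was left out. The p-values measure only the spread between these IDs. Differences are log2 fold changes of eRPKM + 0.5 with their standard errors from limma, two-sided, and a gene was called at a Benjamini-Hochberg adjusted p under 0.05 over all genes tested.

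Myc tumours were first compared with control liver. The feedback genes were split: Dusp9, a cytoplasmic ERK phosphatase, was almost absent from control liver and was the most abundant of the 10 in Myc tumours, whereas the phosphatases Dusp1, Dusp4 and Dusp6, the inhibitors Spry4 and Spred1 and the transcription factor Etv5 were lower. Of the 9 tested, 1 was called higher and 6 were called lower, against 50.4% and 29.7% of all genes tested. The share called in either direction was 80% over all genes, so that 7 calls among 9 genes is near the background. The median log2 fold change of the 9 genes was -0.95, against 0.28 over all genes.

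Dusp9 is known for its role in the mouse placenta. It had 84.6, 91.3 and 107.5 eRPKM in Myc tumours (lowest, median and highest of 7 IDs), against 0, 0.4996 and 2.08 eRPKM in control liver (11 IDs). No Myc ID came near a control ID. The means were 93.2 ± 8.59 eRPKM in Myc tumours and 0.606 ± 0.576 in control liver (SD, n = 7 and 11). The log2 fold change was 6.55 ± 0.20 (SE, limma adjusted p = 4.05e-23), which ranked 2 from the highest of 14566 genes. The control value rests on a median of 9 reads per library, and the highest control library had 41 reads. In Myc tumours the gene held 740 to 1124 reads per kilobase. Whether duplicate reads were removed is not stated; if they were, at most 2000 start positions per kilobase could be counted on both strands, and a correction for that limit gave a log2 fold change of 6.98.

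**Figure D1:**
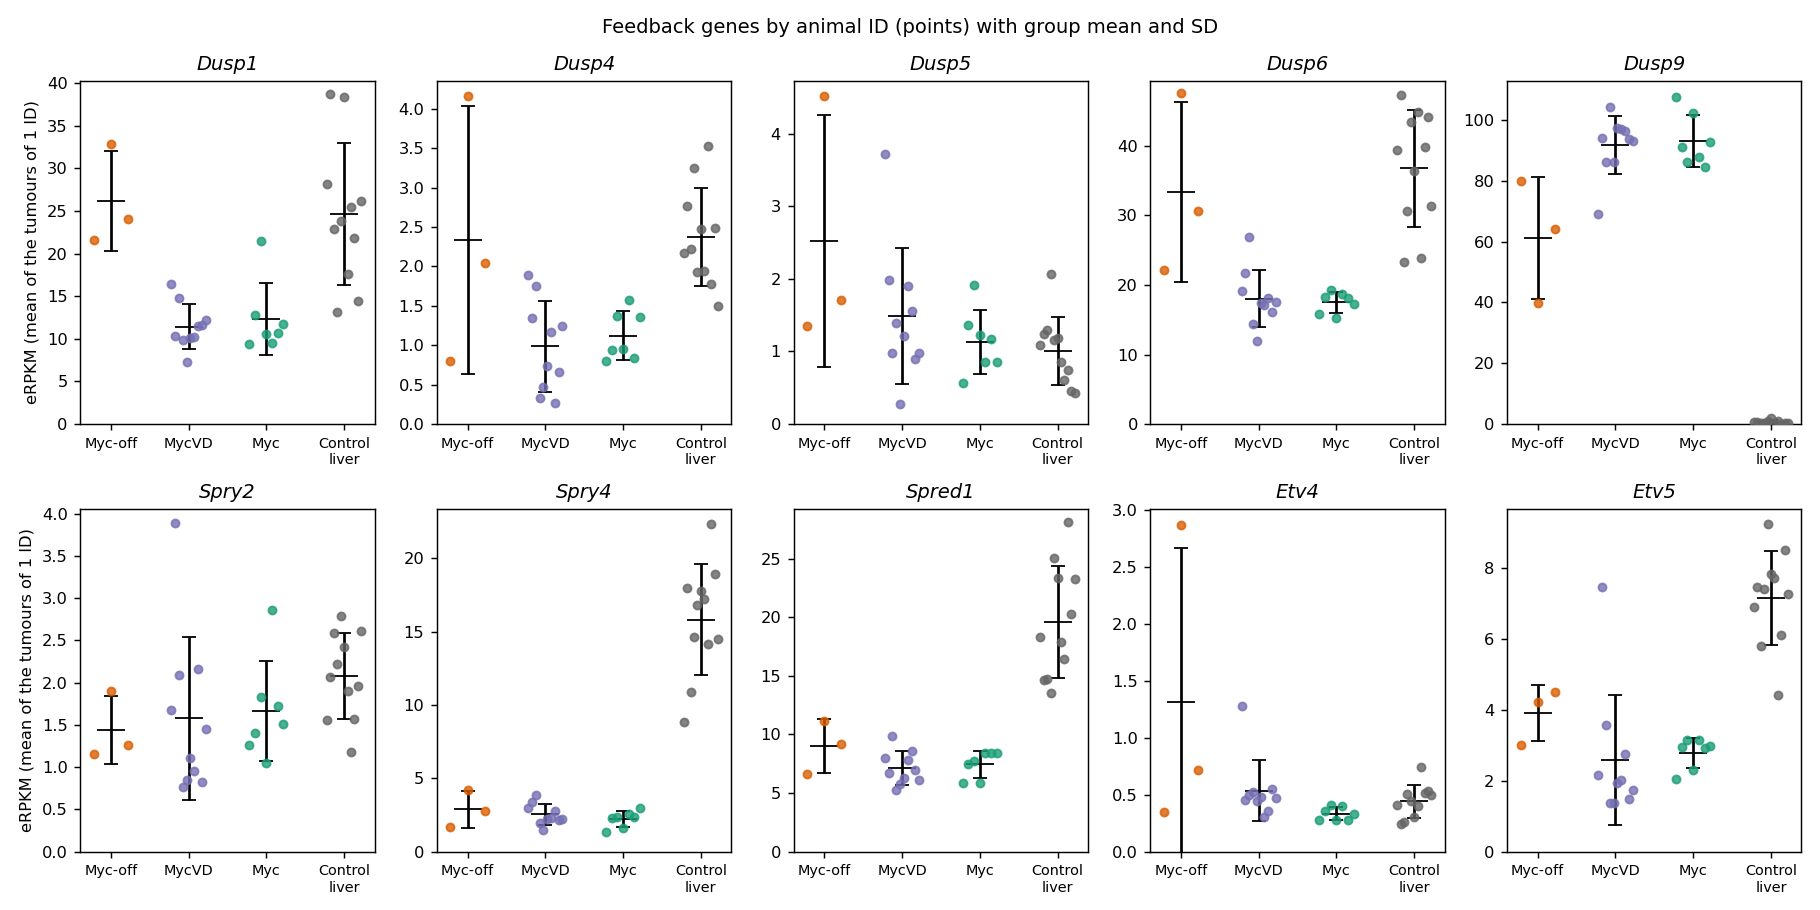
Levels of the 10 feedback genes in eRPKM (y axis, linear, from 0, with its own range in each panel) by group (x axis). Each point is 1 animal ID, the wide bar is the group mean and the whiskers are 1 SD, cut at 0 for Etv4 in Myc-off tumours; Dusp9 stands at 84.6 to 107.5 eRPKM in Myc IDs and at 0 to 2.08 in control IDs, while Spry4 and Spred1 are separated from control liver in every tumour group.

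Sprouty and Spred genes encode membrane-bound inhibitors; Spred1 brings the Ras-GAP neurofibromin to Ras. Spry4 had 1.38, 2.37 and 2.997 eRPKM in Myc IDs, against 8.83, 16.8 and 22.3 eRPKM in control IDs (lowest, median, highest). The log2 fold change was -2.57 ± 0.17 (limma adjusted p = 1.33e-14), the largest fall of the 9 genes. Spred1 had 5.83, 7.71 and 8.45 eRPKM in Myc IDs and 13.5, 18.3 and 28.1 in control IDs, a log2 fold change of -1.32 ± 0.14 (limma adjusted p = 5.23e-10). Neither gene overlapped between the groups. Spry2, a second Sprouty inhibitor, was low throughout, at 1.66 ± 0.591 eRPKM in Myc tumours and 2.08 ± 0.507 in control liver (SD, n = 7 and 11), and was not called (-0.26 ± 0.20, limma adjusted p = 0.228). Median-ratio scaling brought it past the threshold, at -0.47 (limma adjusted p = 0.0310).

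Dusp1 and Dusp4 are nuclear phosphatases that act on several MAP kinases, Dusp5 is a nuclear and Dusp6 a cytoplasmic phosphatase of ERK itself. Dusp6 had 15.3, 18.1 and 19.3 eRPKM in Myc IDs and 23.3, 39.5 and 47.3 in control IDs, with no overlap and a log2 fold change of -1.02 ± 0.15 (limma adjusted p = 2.99e-07). Dusp1 averaged 12.3 ± 4.22 eRPKM in Myc tumours and 24.6 ± 8.34 in control liver, a log2 fold change of -0.95 ± 0.19 (limma adjusted p = 3.21e-05). Its groups overlapped, since Myc ID126947 stood at 21.5 eRPKM and the lowest control ID at 13.2. Dusp4 was lower, at 1.12 ± 0.309 eRPKM in Myc tumours against 2.37 ± 0.623 in control liver (-0.82 ± 0.23, limma adjusted p = 0.00160). Dusp5 was near 1 eRPKM in both groups, at 1.14 ± 0.440 in Myc tumours and 1.01 ± 0.469 in control liver, and was not called (0.13 ± 0.25, limma adjusted p = 0.636; -0.03 after median-ratio scaling).

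Etv4 and Etv5 are ETS family transcription factors that FGF signalling through ERK induces. Etv5 had 2.04, 2.95 and 3.15 eRPKM in Myc IDs and 4.42, 7.41 and 9.25 in control IDs, without overlap (-1.21 ± 0.20, limma adjusted p = 2.29e-06). Etv4 was at or under 0.406 eRPKM in every Myc ID and at or under 0.747 in every control ID, on 5 to 19 reads per Myc library and 7 to 17 per control library. Of the 9 genes tested, 1 was higher and 4 were lower with no overlap between ID means, where 35.1% and 18.7% of all genes were, or 53.8% in either direction.

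The 7 calls were made under each of 17 alternative settings and with each of the 31 IDs left out. The eRPKM scale moves all genes: 62.9% of the calls between Myc tumours and control liver were higher, against 52.0% after median-ratio scaling, when the median over all genes was 0.05 in place of 0.28. Relative to the median of all genes the 6 lower genes therefore stood lower still, and their median-ratio calls were the same. Markers of other cells moved with this comparison: all 7 hepatocyte and 6 of 8 endothelial markers were lower in Myc tumours, all 5 erythroid, 5 of 6 neutrophil and all 7 cycling markers higher. Endothelial markers summed to 63.2 to 94.3 eRPKM in Myc IDs and 162 to 302 in control IDs, and cycling markers to 394 to 483 eRPKM in Myc IDs and 8.17 to 28.6 in control IDs. Their part in the feedback genes was not tested.

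The next comparison set Myc-off tumours against Myc tumours. Food with doxycycline for 16 h separated the groups, as did whatever goes with the ID numbers. Doxycycline itself and the loss of tet-Myc expression come together here and cannot be told apart. The phosphatases Dusp1 and Dusp6 rose, and no feedback gene was called lower. Of the 9 genes tested, 2 were called higher, or 2 of 9 against 22.8% of all genes; 28% of all genes were called lower and 50.7% in either direction. The median log2 fold change of the 9 genes was 0.42, against 0 over all genes.

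Dusp1 had 21.6, 32.9 and 24.0 eRPKM in Myc-off ID150584, ID151964 and ID153344, against 9.43, 10.7 and 21.5 eRPKM in Myc IDs (lowest, median, highest). Every Myc-off ID was above every Myc ID, with Myc ID126947 at 21.5 eRPKM next to Myc-off ID150584 at 21.6. The log2 fold change was 1.08 ± 0.27 (limma adjusted p = 0.00102). Dusp6 had 22.1, 47.6 and 30.7 eRPKM in the same 3 Myc-off IDs, against 15.3, 18.1 and 19.3 eRPKM in Myc IDs, again without overlap (0.85 ± 0.21, limma adjusted p = 0.00126). By library, 7 of the 8 Myc-off tumours were above every Myc tumour for Dusp6 and 5 of 8 for Dusp1. ID means did not overlap, with Myc-off higher, for 19.6% of all genes, and in either direction for 45.5%. Both calls were made under each of the 17 alternatives and with each ID left out. Without ID151964 the log2 fold change of Dusp6 was 0.56 (limma adjusted p = 0.0475), against 1.11 without ID150584; that of Dusp1 ran between 0.91 and 1.22 over all IDs left out.

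The promoters of these 2 genes are shown because they rose together, beside that of Spred1, which fell in Myc tumours and was not called between Myc-off and Myc tumours. The windows hold 250 bases before and 50 after the transcription start, from RefSeq on GRCm38.p6; 6 of the 10 genes matched. Capitals mark an E-box (CACGTG, the site that Myc with Max prefers) or a cAMP response element (TGACGTCA).
Dusp1, chr17:26508423-26508722, minus strand: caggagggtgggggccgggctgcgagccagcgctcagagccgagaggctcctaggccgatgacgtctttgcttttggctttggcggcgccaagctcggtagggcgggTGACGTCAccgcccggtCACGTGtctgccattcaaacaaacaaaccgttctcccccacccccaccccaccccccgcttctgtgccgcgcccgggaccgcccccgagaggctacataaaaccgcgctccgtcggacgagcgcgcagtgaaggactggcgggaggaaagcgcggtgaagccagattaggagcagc
Dusp6, chr10:99262981-99263280, plus strand: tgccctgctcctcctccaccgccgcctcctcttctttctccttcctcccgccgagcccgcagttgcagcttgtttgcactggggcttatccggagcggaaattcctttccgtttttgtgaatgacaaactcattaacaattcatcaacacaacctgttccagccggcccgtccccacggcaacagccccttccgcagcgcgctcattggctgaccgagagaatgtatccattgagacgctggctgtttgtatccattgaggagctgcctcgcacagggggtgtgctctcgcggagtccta
Spred1, chr2:117120821-117121120, plus strand: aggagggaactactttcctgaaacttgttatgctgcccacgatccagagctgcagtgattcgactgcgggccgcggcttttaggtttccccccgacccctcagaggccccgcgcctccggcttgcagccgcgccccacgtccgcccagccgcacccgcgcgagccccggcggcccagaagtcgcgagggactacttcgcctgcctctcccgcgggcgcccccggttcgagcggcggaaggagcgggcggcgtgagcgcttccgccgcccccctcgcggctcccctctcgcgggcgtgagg

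Motifs were searched on both strands: CACGTG, TGACGTCA, the ETS core CCGGAA and the TATA box TATAAA, whose letters do not overlap in these windows. The Dusp1 window held 1 cAMP response element and, downstream of it, 1 E-box, and neither of the other motifs. The windows of Dusp6 and Spred1 held none of the 4, nor did those of Dusp5 and Etv5, while that of Spry2 held 1 CCGGAA. Over 32534 promoters of the same length, 7.17% held CACGTG, 1.80% TGACGTCA, 14.98% CCGGAA and 13.6% TATAAA. The windows of Dusp1, Dusp6 and Spred1 were 67%, 57.3% and 72.3% G and C, against a median of 53% over all promoters.

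Dusp9 had 79.9, 39.8 and 64.1 eRPKM in Myc-off ID150584, ID151964 and ID153344, against 84.6, 91.3 and 107.5 eRPKM in Myc IDs. All 3 Myc-off IDs were below every Myc ID, and 6 of 8 Myc-off libraries were below every Myc library. Its log2 fold change was -0.65 ± 0.29 and missed the threshold (limma adjusted p = 0.0583). ID means did not overlap, with Myc-off lower, for 25.9% of all genes. The call turned on the processing: it was made in 8 of 17 alternatives, among them the correction for start positions (-0.92, limma adjusted p = 0.0102) and limma's voom on recovered reads (-0.65, adjusted p = 0.00105), and without ID151964 the difference was -0.37 (limma adjusted p = 0.384). Myc-off tumours kept Dusp9 far above control liver, as given further on.

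Dusp4 had 0.801, 4.16 and 2.04 eRPKM in Myc-off ID150584, ID151964 and ID153344, against 0.805, 0.955 and 1.58 eRPKM in Myc IDs (0.64 ± 0.32, limma adjusted p = 0.0985). Dusp5 had 1.35, 4.52 and 1.71 eRPKM in the same Myc-off IDs, against 0.565, 1.17 and 1.92 eRPKM in Myc IDs (0.79 ± 0.36, limma adjusted p = 0.0675). Both genes overlapped between the groups and neither was called, and both stood highest in ID151964. Dusp4 passed the threshold in 4 and Dusp5 in 6 of 17 alternatives. Dusp5 overlaps an annotated antisense gene, and the library kit does not keep strand, so their reads cannot be told apart; the same holds for Dusp1 and Ergic1, and for Spry4 and small RNA genes.

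The inhibitors and Etv5 were not called between Myc-off and Myc tumours. Spry4 averaged 2.89 ± 1.25 eRPKM in Myc-off tumours and 2.24 ± 0.565 in Myc tumours (0.27 ± 0.25, limma adjusted p = 0.384). Spred1 averaged 9.01 ± 2.29 eRPKM in Myc-off and 7.45 ± 1.18 in Myc tumours (0.24 ± 0.20, limma adjusted p = 0.329). Both remained below every control ID in all 3 Myc-off IDs. Spry2 averaged 1.44 ± 0.402 eRPKM in Myc-off tumours and 1.66 ± 0.591 in Myc tumours (-0.14 ± 0.29, limma adjusted p = 0.721), with a difference of 0.41 under the depth term. Etv5 averaged 3.91 ± 0.800 eRPKM in Myc-off and 2.79 ± 0.434 in Myc tumours (0.42 ± 0.29, limma adjusted p = 0.231) and passed the threshold in 4 of 17 alternatives.

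Etv4 had 0.350, 2.86 and 0.718 eRPKM in Myc-off ID150584, ID151964 and ID153344, against 0.275 to 0.406 eRPKM in Myc IDs. The groups overlapped through ID150584. Fitted without the filter on low values, its log2 fold change was 0.87 ± 0.24 (limma adjusted p = 0.00474) against Myc tumours and 0.70 ± 0.23 (limma adjusted p = 0.0125) against control liver.

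**Figure D2:**
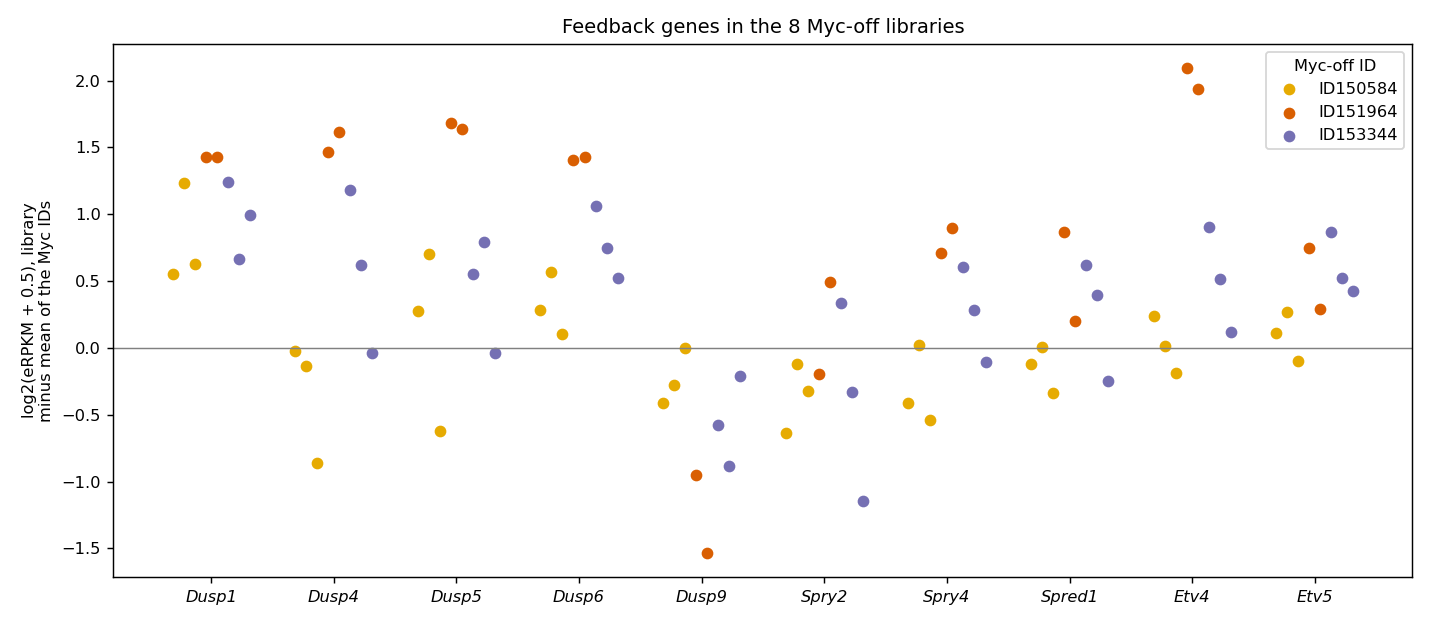
Each point is 1 of the 8 Myc-off libraries, coloured by its animal ID, for the 10 feedback genes (x axis). The y axis is log2(eRPKM + 0.5) in that library minus the mean of the Myc IDs, with 0 marking Myc tumours; the 2 libraries of ID151964 stand highest for Dusp4, Dusp5, Dusp6 and Etv4 and lowest for Dusp9, and all 8 libraries are above 0 for Dusp1 and Dusp6.

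The 3 Myc-off IDs differed among themselves. The SD of log2 values between Myc-off IDs was larger than that between tumours of 1 ID for 8 of the 10 genes, against 3 of 10 in Myc tumours. For Dusp6 these SDs were 0.55 between and 0.23 within IDs, and for Etv4 1.04 and 0.29. ID151964 was highest of the 3 IDs for 8 genes and lowest for Dusp9, and ID150584 was lowest for 9 and highest for Dusp9. Cholangiocyte markers (7 genes) ran in the order of Dusp6, with sums of 50.8, 147 and 122 eRPKM in ID150584, ID151964 and ID153344, against 18.2 to 42.6 eRPKM in Myc IDs. Stellate markers (8 genes) ran in the same order, at 78.8, 136 and 113 eRPKM in these Myc-off IDs, against 74.2 to 141 in Myc IDs. Endothelial markers (8 genes) were also lowest in ID150584, at 57.9, 100.3 and 106 eRPKM in these Myc-off IDs, against 63.2 to 94.3 in Myc IDs. T and NK cell markers ran in the opposite order to Dusp6, at 37.3, 16.2 and 22.02 eRPKM in these Myc-off IDs. Neutrophil markers (237, 123 and 307 eRPKM) and erythroid markers (149, 58.2 and 233 eRPKM) were lowest in ID151964. Macrophage markers (178, 204 and 258 eRPKM) and cycling markers (172, 175 and 221 eRPKM) were lowest in ID150584 and highest in ID153344. Hepatocyte markers were at 1048, 1047 and 997 eRPKM. Of the cholangiocyte markers 6 were tested, and all 6 were called higher in Myc-off than in Myc tumours. Of the hepatocyte markers 6 of 7 were called higher, and of the cycling markers 6 of 7 were called lower. Of the 8 endothelial markers 1 was called higher, as was 1 of 7 T and NK cell markers tested. Stellate, macrophage, neutrophil and erythroid markers gave no call. The part of these cells in the feedback genes was not tested.

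MycVD tumours were compared with Myc tumours, which differ by the V394D substitution and by whatever goes with the ID numbers. No feedback gene was called. Limma called 0 of 9, against 15.8% of all genes (6.14% higher and 9.69% lower), and 0 had an unadjusted p under 0.05; voom on recovered reads likewise called 0 of 9 and found 0 under an unadjusted 0.05. Dusp9 had 69.1, 93.9 and 104.4 eRPKM in MycVD IDs, against 84.6, 91.3 and 107.5 eRPKM in Myc IDs (lowest, median, highest). Its log2 fold change was -0.02 ± 0.21, so an interval of 2 standard errors spans -0.44 to 0.39. Dusp6 averaged 18.04 ± 4.08 eRPKM in MycVD and 17.5 ± 1.49 in Myc tumours (0.02 ± 0.15, interval -0.29 to 0.32). The narrowest such interval was that of Spred1, -0.35 to 0.22, and the widest that of Dusp5, -0.31 to 0.71. Differences inside these intervals are compatible with the data, so the lack of calls does not show that the groups are alike.

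The signs of these small differences turned with the processing for 7 of the 9 genes, Dusp5 and Spry4 excepted. Leaving out the 8 libraries with low Gapdh gave 1 call, Etv5, lower in MycVD tumours (-0.47, limma adjusted p = 0.0300). Etv5 averaged 2.59 ± 1.84 eRPKM in MycVD and 2.79 ± 0.434 in Myc tumours, and 1 MycVD ID with low Gapdh, ID133079, stood at 7.47 eRPKM, the highest of the 10. The count over all genes was 2306 and rose to 3987 without those libraries; 38.8% of the calls were higher, against 49.9% after median-ratio scaling. ID means did not overlap in either direction for 2.1% of all genes (0.783% higher and 1.32% lower) and for no feedback gene. Markers moved in this comparison too: 4 of 7 hepatocyte markers were higher in MycVD tumours, among them Ttr (0.78), and 3 of 7 macrophage markers, among them Marco (-2.05), and 2 of 8 endothelial markers, Stab2 (-1.06) and Tek (-0.62), were lower (log2 fold changes; these markers are named after their values were seen). Their part in the calls was not tested.

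MycVD tumours were also compared with control liver. The control livers are those of the first comparison, so the 2 are not independent. Limma called 1 gene higher and 7 lower, against 49.2% and 31.1% of all genes, or 80.2% in either direction. Dusp9 was higher by 6.52 ± 0.18 (log2, limma adjusted p = 2.40e-24), without overlap, as were 25.8% of all genes; Spry4 and Spred1 were lower without overlap, as were 14.7%, and 40.5% did not overlap in either direction. Spry4 (-2.42 ± 0.16, limma adjusted p = 4.55e-15), Etv5 (-1.44 ± 0.18), Spred1 (-1.38 ± 0.13), Dusp1 (-1.03 ± 0.17), Dusp4 (-1.02 ± 0.20) and Dusp6 (-1.001 ± 0.13) were lower, each at a limma adjusted p of 3.82e-05 or less. Spry2, with 1.58 ± 0.963 eRPKM in MycVD tumours and 2.08 ± 0.507 in control liver, was called at -0.40 ± 0.18 (limma adjusted p = 0.0463), but not in 4 of 17 alternatives, nor in 17 of the 31 fits without 1 ID. Dusp5 was not called (0.33 ± 0.23, limma adjusted p = 0.178; -0.06 with quantile normalisation). The median over all genes was 0.22, or 0.03 after median-ratio scaling, when 51.0% in place of 61.3% of the calls were higher. Endothelial markers summed to 50.6 to 103 eRPKM in MycVD IDs and 162 to 302 in control IDs, with 6 of 8 called lower and 1 higher. Of 8 stellate markers 3 were called higher and 3 lower, and of 7 macrophage markers 2 higher and 3 lower. Cycling markers summed to 384 to 474 eRPKM in MycVD IDs and 8.17 to 28.6 in control IDs. All 6 neutrophil markers, all 5 erythroid markers and 4 of 7 T and NK cell markers tested were called higher in MycVD tumours. All 7 hepatocyte markers were called lower. Their part in the feedback genes was not tested.

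Myc-off tumours were last compared with the same control livers. Spry4, Spred1, Etv5 and Dusp9 still differed, while no difference was called for Dusp1, Dusp4, Dusp6 and Spry2. Spry2 had not been called between Myc tumours and control liver either. Intervals of 2 standard errors spanned -0.36 to 0.64 for Dusp1, -0.78 to 0.43 for Dusp4, -0.57 to 0.23 for Dusp6 and -0.95 to 0.14 for Spry2. With 3 Myc-off IDs, the lack of calls does not show that these genes were at the control level. Limma called 2 genes higher and 3 lower, against 37.3% and 20.9% of all genes, or 58.3% in either direction. Dusp9 was higher by 5.89 ± 0.27 (log2, limma adjusted p = 1.19e-17), at 61.3 ± 20.2 eRPKM in Myc-off tumours and 0.606 ± 0.576 in control liver (SD, n = 3 and 11). Spry4 was lower, with a log2 fold change of -2.30 ± 0.23 (limma adjusted p = 9.13e-10), as was Spred1, with -1.07 ± 0.19 (limma adjusted p = 1.46e-05), both with no overlap, as for 13.7% of all genes. Dusp9 was higher with no overlap, as for 26.4%, and 40% of all genes did not overlap in either direction. Etv5, at 3.91 ± 0.800 eRPKM in Myc-off tumours against 7.16 ± 1.33 in control liver, was lower too (-0.79 ± 0.27, limma adjusted p = 0.0128; -0.63 and 0.0972 without ID150584).

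Dusp5 was higher in Myc-off tumours, at 2.52 ± 1.73 eRPKM against 1.01 ± 0.469 in control liver (0.92 ± 0.34, limma adjusted p = 0.0207). That call rests on ID151964: without it the difference was 0.48 (limma adjusted p = 0.292), and with quantile normalisation it was 0.29 (limma adjusted p = 0.467). Dusp1 averaged 26.2 ± 5.90 eRPKM in Myc-off tumours and 24.6 ± 8.34 in control liver (0.14 ± 0.25, limma adjusted p = 0.652; -0.04 after median-ratio scaling). Dusp6 averaged 33.4 ± 12.9 eRPKM in Myc-off tumours and 36.8 ± 8.43 in control liver (-0.17 ± 0.20, limma adjusted p = 0.488). Dusp4 averaged 2.33 ± 1.70 eRPKM in Myc-off tumours and 2.37 ± 0.623 in control liver (-0.17 ± 0.30, limma adjusted p = 0.639), and Spry2 1.44 ± 0.402 eRPKM in Myc-off tumours and 2.08 ± 0.507 in control liver (-0.40 ± 0.27, limma adjusted p = 0.206). The median over all genes was 0.17, or -0.01 after median-ratio scaling, when 49.3% in place of 64.1% of the calls were higher. Endothelial markers summed to 57.9 to 106 eRPKM in Myc-off IDs and 162 to 302 in control IDs, and cycling markers to 172 to 221 eRPKM in Myc-off IDs and 8.17 to 28.6 in control IDs. Cholangiocyte markers summed to 50.8 to 147 eRPKM in Myc-off IDs and 25.3 to 44.9 in control IDs. All 6 neutrophil markers, all 5 erythroid markers and 5 of 7 T and NK cell markers tested were called higher in Myc-off tumours. Of the 8 endothelial markers 5 were called lower. The part of these cells was not tested.

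**Figure D3:**
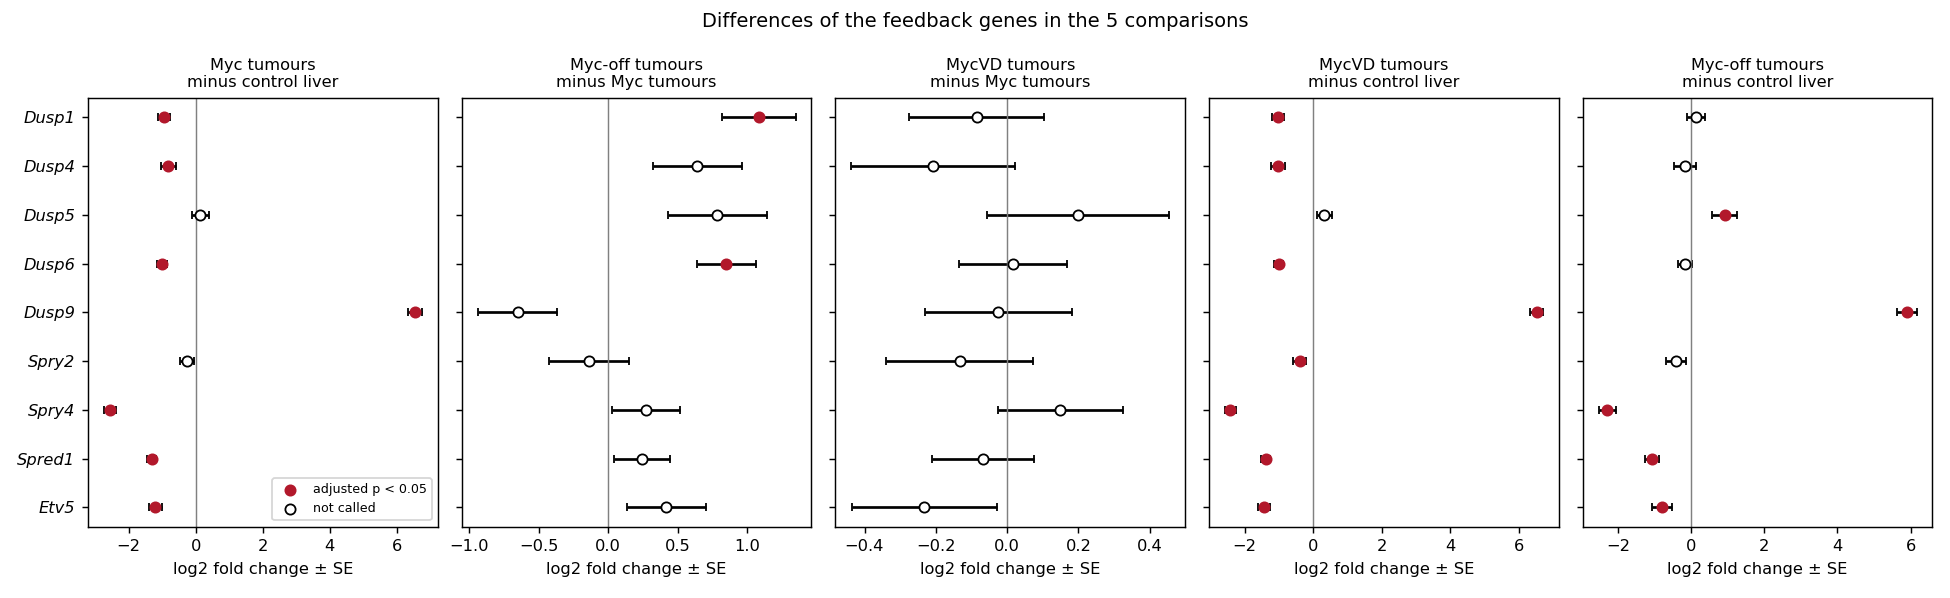
Log2 fold changes of the 9 tested feedback genes with bars of 1 SE, 1 panel for each comparison and with its own x axis range; filled points passed a limma adjusted p of 0.05 and open points did not. Dusp9 lies near 6 in each panel against control liver, Dusp1 and Dusp6 alone are filled for Myc-off minus Myc tumours, and no point is filled for MycVD minus Myc tumours.

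Set in order of their mean, most neighbouring groups overlapped. The gap between control liver and the nearest tumour group was free of overlap for Dusp9 (control lowest) and for Spry4 and Spred1 (control highest), and no other pair of neighbours was. For Dusp1 the order from the lowest was MycVD, Myc, control and Myc-off; for Dusp6 it was Myc, MycVD, Myc-off and control. Dusp9 ran control, Myc-off, MycVD and Myc. In Etv4 and Dusp5 Myc-off tumours stood highest, with every neighbour overlapping.

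Summed over 10 MAP kinase phosphatase genes (Dusp1, Dusp2, Dusp4 to Dusp10 and Dusp16), the level was 172 ± 6.07 eRPKM in Myc-off tumours, 167 ± 11.3 in MycVD tumours, 176 ± 9.94 in Myc tumours and 105 ± 16.7 in control liver (SD over IDs). These 10 genes were put together with earlier results known, so the sum is given without a test. Dusp9 made up 38.7% of the sum in Myc-off, 55.6% in MycVD and 52.3% in Myc tumours and 0.449% in control liver (medians over IDs). The share of Dusp6 was 18.5%, 10.2%, 9.98% and 34.1% in the same groups, and that of Dusp1 14.5%, 6.37%, 6.51% and 24.3%. The total in Myc-off tumours lay within the range of the Myc IDs, 165 to 195 eRPKM, with a smaller share of Dusp9 and larger shares of Dusp6 and Dusp1. Shares within a sum show unequal change and not which gene moved.

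**Figure D4:**
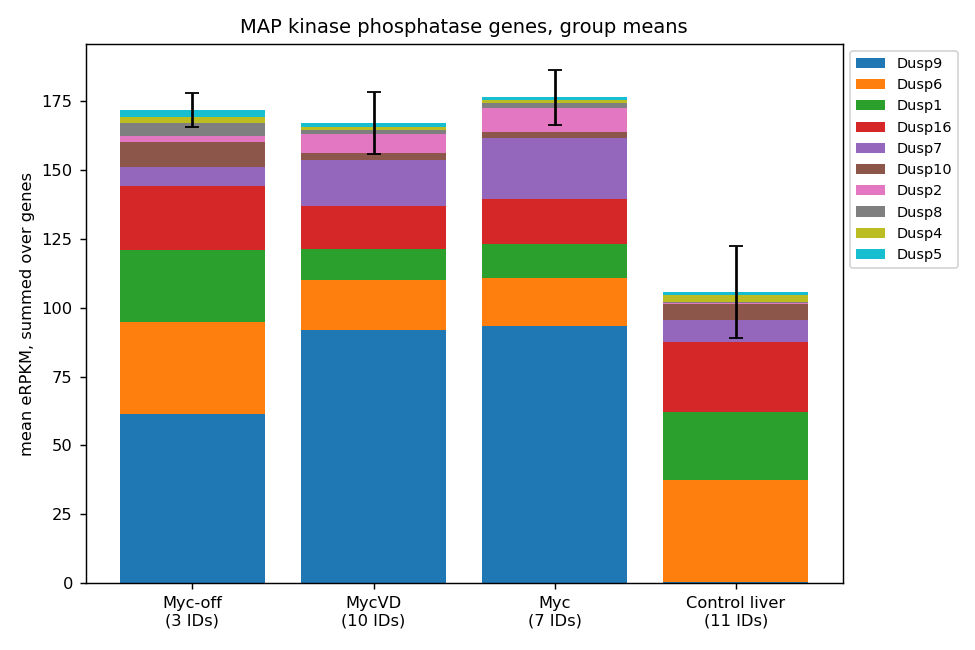
Stacked bars of mean eRPKM (y axis, linear, from 0) of the 10 MAP kinase phosphatase genes in each group (x axis), with 1 SD of the summed level over IDs as the error bar. The 3 tumour groups reach 167 to 176 eRPKM, with Dusp9 as the lowest block, and control liver 105 eRPKM, almost without Dusp9.

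Likeness was measured over the 31 IDs, which share their groups. Spearman's rho of log2 values, given as a description, was 0.93 between Spry4 and Spred1, 0.89 between Dusp6 and Etv5 and 0.87 between Dusp6 and Spry4. Dusp9 ran opposite, at -0.85 with Dusp6 and Spred1. Dusp5 followed none of the others, with rho between -0.19 and 0.20. The genes most like Dusp9 were Asf1b (0.95), Spc24 (0.94) and Cdca3 (0.94), each higher in the 3 tumour groups than in control liver; Asf1b averaged 10.8 eRPKM in Myc-off, 36.7 in MycVD and 32.6 in Myc tumours and 1.36 in control liver. Those most like Spry4 were Ptpn3 (0.93), Spred1 and Smarca2 (0.89). Most like Dusp1 was Hivep2 (0.88) and most like Dusp6 Irak4 (0.92).

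The rest of the pathway was read from 7 lists of ERK pathway genes. Of their 83 tested genes, 68 (81.9%) were called between Myc tumours and control liver, 40 higher and 28 lower, against 80% of all genes, 50.4% higher and 29.7% lower, so the lists together were near the background. Among 22 genes of the cascade itself, from adaptors to ERK, 15 were higher and 3 lower in Myc tumours than in control liver, with a median log2 fold change of 0.30 against 0.28 over all genes. After median-ratio scaling 9 were higher and 7 lower. Of 14 receptors tested, 4 were higher and 7 lower; Erbb2, the co-receptor of the EGF receptor family, had 10.9 ± 1.23 eRPKM in Myc tumours and 1.147 ± 0.351 in control liver, and Fgfr2, an FGF receptor, 2.84 ± 1.29 eRPKM in Myc tumours and 25.4 ± 2.49 in control liver. Of 12 ligands, 5 were higher and 7 lower. Fgf1 was at 0.932 ± 0.302 in Myc tumours against 49.5 ± 8.73 eRPKM in control liver (log2 fold change -5.13 ± 0.21). Kitl was at 28.5 ± 2.90 in Myc tumours against 0.919 ± 0.223 eRPKM in control liver (4.36 ± 0.22). Of 9 other feedback genes, 4 were higher and 4 lower: Dusp2, a nuclear ERK phosphatase, was at 8.69 ± 1.73 eRPKM in Myc tumours against 0.305 ± 0.163 in control liver, and Errfi1, an inhibitor of the EGF receptor, at 25.3 ± 10.1 eRPKM in Myc tumours against 156 ± 34.3 in control liver. Of 12 immediate-early genes, 7 were higher and 1 lower in Myc tumours, with a median of 0.82: the transcription factor Atf3 was at 15.9 ± 11.6 eRPKM in Myc tumours against 2.56 ± 1.39 in control liver, and Zfp36, which promotes mRNA decay, at 13.7 ± 4.72 eRPKM in Myc tumours against 45.4 ± 10.02 in control liver. Of 8 delayed targets, 2 were higher and 4 lower, with a median of -0.85. Phlda1 was at 2.32 ± 0.396 eRPKM in Myc tumours against 45.5 ± 19.96 in control liver, and Plaur at 4.46 ± 1.54 against 0.463 ± 0.209. After median-ratio scaling 6 immediate-early genes were higher and 4 lower. Between MycVD tumours and control liver 66 of the 83 genes (79.5%) were called, against 80.2% of all genes, and between Myc-off tumours and control liver 55 of 83 (66.3%), against 58.3%.

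Between Myc-off and Myc tumours, 40 of the 83 genes (48.2%) were called, 30 higher and 10 lower, against 50.7% of all genes, 22.8% higher and 28% lower. Of these lists, 6 of 8 delayed ERK targets and 6 of 12 immediate-early genes were called higher, with 0 and 1 lower. Their medians were 0.76 and 0.90, against 0 over all genes. Egr1, an immediate-early transcription factor, had 14.3 ± 6.91 eRPKM in Myc-off and 4.40 ± 1.34 in Myc tumours (1.55 ± 0.51, limma adjusted p = 0.0116). Phlda1 had 9.36 ± 3.76 eRPKM in Myc-off and 2.32 ± 0.396 in Myc tumours (1.75 ± 0.48, limma adjusted p = 0.00310). Without ID151964, 2 of the 12 immediate-early genes were called higher. Of the 9 other feedback genes 5 were higher and 2 lower, with Dusp10 at 9.14 ± 1.63 eRPKM in Myc-off and 2.24 ± 1.10 in Myc tumours (1.88 ± 0.27) and Dusp2 at 2.22 ± 0.802 eRPKM in Myc-off and 8.69 ± 1.73 in Myc tumours (-1.78 ± 0.24). The cascade gave 4 calls each way, and limma called 0 of 6 brakes on Ras and Raf, with 1 at an unadjusted p under 0.05 and 1 called higher with voom. Fgfr2 (2.42 ± 0.26) was the receptor with the largest rise and Kit (-1.19 ± 0.23) the only one called lower.

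Between MycVD and Myc tumours these lists together gave 13 calls among 83 genes (15.7%), 7 higher and 6 lower. That is at the background of 15.8% of all genes, 6.14% higher and 9.69% lower. The lists were not alike: of the 9 other feedback genes, 1 was called higher and 3 lower, a larger part than over all genes. Among receptors, Kit had 3.66 ± 1.01 eRPKM in MycVD and 7.66 ± 0.716 in Myc tumours (-1.01 ± 0.16, limma adjusted p = 6.91e-05). Fgfr2 had 7.09 ± 2.69 eRPKM in MycVD and 2.84 ± 1.29 in Myc tumours (1.20 ± 0.18, limma adjusted p = 4.32e-05), with overlap between ID means. Errfi1 had 41.8 ± 16.1 eRPKM in MycVD and 25.3 ± 10.1 in Myc tumours (0.71 ± 0.20, limma adjusted p = 0.0157). Spry3, a Sprouty family member, had 1.22 ± 1.14 eRPKM in MycVD and 4.001 ± 1.03 in Myc tumours (-1.68 ± 0.30, limma adjusted p = 2.03e-04). In Myc-off tumours Spry3 stood at 14.4 ± 4.35 eRPKM, against 0.0462 ± 0.0424 in control liver (4.73 ± 0.39, limma adjusted p = 1.10e-11), while Spry4 was lower there.

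**Figure D5:**
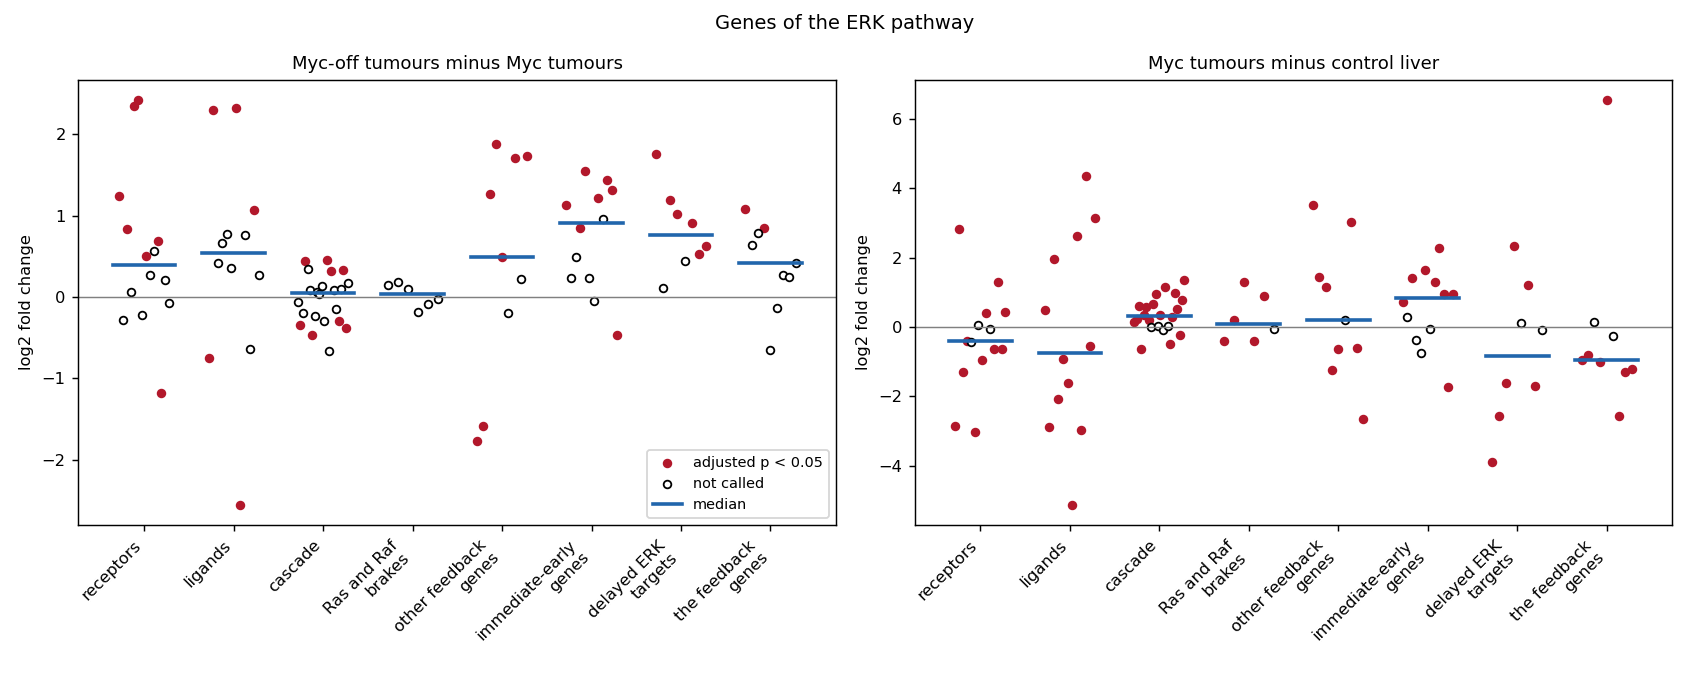
Log2 fold change (y axis) of each tested gene of 7 ERK pathway lists and of the 9 feedback genes (x axis), for Myc-off minus Myc tumours and for Myc tumours minus control liver, each panel with its own range. Filled points passed a limma adjusted p of 0.05, open points did not and blue bars are medians; in Myc-off minus Myc tumours the medians of the immediate-early genes (0.90) and delayed targets (0.76) lie above those of the cascade (0.04) and of the Ras and Raf brakes (0.04).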

How the data were processed

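RNA was depleted of ribosomal RNA and sequenced with an unstranded kit, per the labels' protocols. Reads were aligned with TopHat and TopHat2 2.0.8 to mm9, per the submitters' processing notes; the counter, the annotation and the treatment of duplicates were not given in the sources used here. The authors deposited eRPKM, a form of RPKM, for 21671 genes and 46 libraries. Its steps gave whole reads (within 0.001) for 100% of the values of 18589 genes, from which depth was recovered.

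Tumours of 1 ID were averaged, genes reaching 1 eRPKM in 3 or more IDs were kept, and log2(eRPKM + 0.5) was fitted over all 4 groups with limma 3.58.1 in R 4.3.3, with a mean-variance trend and no covariate; fold changes on this scale understate the change of low genes. The code was tested on simulated data. The alternatives changed the pseudocount, filter, scaling, replicate unit, averaging, depth term, groups fitted, variance model, sample weights, start positions and libraries or IDs kept; voom on recovered reads was chosen after seeing the data. The 10 genes and all lists were chosen with earlier results of these data known. Of each list, the text draws its named genes from the called genes with the largest rise and fall per comparison among those averaging at least 2 eRPKM in the higher group, and names the 3 genes with the highest Spearman's rho with a feedback gene, or the first of them.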

Additional observations from a re-analysis of the deposited data

Results flagged for a closer look

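In groups of 4 to 10 IDs, 20 sets of values of the feedback genes were examined for a single ID far from the rest. The measure was its gap to the nearest other ID over the range, and 6 were found. The cutoff passes about 1 in 20 independent sets of normally distributed values by chance. These sets share their IDs, so the count is not compared with that rate. Dusp1 was at 21.5 eRPKM in Myc ID126947, the highest of 7 IDs. The other 5 belong to 2 MycVD IDs, both with Gapdh under 30 eRPKM. In MycVD ID133074 Dusp5 was highest at 3.73 eRPKM, Etv4 highest at 1.28 eRPKM and Dusp9 lowest at 69.1 eRPKM. In MycVD ID133079 Spry2 was highest at 3.89 eRPKM and Etv5 highest at 7.47 eRPKM. The part of RNA quality in these values was not tested.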

How the results depend on the processing

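No paired analysis was possible because the IDs pair no samples across groups. Between Myc-off and Myc tumours the 2 feedback genes called became 6 with every tumour as its own sample, 6 with voom, 5 with a depth term and 4 each with animal ID as a random effect, with array weights and without the shallowest Myc-off library, and 2 to 5 with 1 ID left out. Between MycVD and Myc tumours the count was 1 without low-Gapdh libraries and 0 to 0 with 1 ID left out; all genes called, 2306, became 959 with the depth term, 4770 with array weights, 3987 without low-Gapdh libraries and 1500 to 2653 with 1 ID left out (1500 without Myc ID130395). Left-out IDs gave 7 to 7 calls for Myc tumours, 7 to 8 for MycVD tumours and 4 to 5 for Myc-off tumours, each against control liver. The ranges over all genes were 11427 to 11755, 11587 to 11839 and 7323 to 8744 in the same order of comparisons, and 6169 to 7665 for Myc-off against Myc tumours.

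Signs turned only for differences that were not called, Pebp1 excepted. For Myc tumours against control liver Dusp5 was -0.0304 with median-ratio scaling, -0.43 with quantile normalisation and -0.39 with the depth term. For Myc-off against Myc tumours Spry2 was 0.41 with the depth term. For MycVD against Myc tumours the depth term gave 0.11 for Dusp1, 0.0227 for Dusp4, 0.0629 for Dusp9, 0.22 for Spry2, 0.0124 for Spred1 and 0.18 for Etv5; quantile normalisation gave 0.0020 for Spry2, 0.0506 for Spred1 and -0.0216 for Pebp1. Array weights gave -0.0591 for Dusp6 and 0.0289 for Dusp9, median-ratio scaling 0.0176 for Dusp9, every tumour as its own sample 0.0084 for Dusp1 and 0.0561 for Spred1, voom 0.0103 for Spred1 and leaving out low-Gapdh libraries -0.10 for Dusp6. With 1 ID left out Dusp1 ran between -0.14 and 0.0532, Dusp6 between -0.0501 and 0.0764 and Dusp9 between -0.0474 and 0.0196. For MycVD tumours against control liver Dusp5 was -0.0641 with quantile normalisation. For Myc-off tumours against control liver Dusp1 was -0.0437 with median-ratio scaling; with 1 ID left out it ran between -0.0336 and 0.26, Dusp4 between -0.63 and 0.29 and Dusp6 between -0.45 and 0.0909, with Myc-off ID151964 out at the low end and ID150584 out at the high end. The cause was not tested. Low reads limit Dusp4, Dusp5, Spry2 and Etv4.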
